A study of Drosophila melanogaster with 18 samples.

Results

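RNA of whole adult *Drosophila melanogaster* males was compared between the MLX and the Control treatment, with 6 arrays on each side out of the 18 arrays of the experiment. The comparison holds all arrays carrying either treatment label, and it was made over the 18769 probe sets that are not Affymetrix controls. MLX stands for male-limited X: over 50 generations fathers handed the X chromosome to their sons. The exception was a share of the males in each generation, whose X had been through females in a recombination box and was then returned. Control males came from populations of the same size with the usual transmission, in which a son takes his X from his mother. The 6 arrays of a treatment were 2 from each of 3 populations numbered 1 to 3, and the males were 4 days old as adults, on day 14 of the culture. All populations descend from the laboratory stock LHm and were started at the same time, and the Control populations were closed. The methods give 8 males for each array, whereas the labels give 1. The third treatment, CDX, had 6 arrays of sons of Control fathers and DX mothers. In the main comparison these arrays entered only the estimate of the spread.

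Father-to-son transmission was forced with DX females, which carry a compound X of 2 X chromosomes joined at the centromere, together with a Y. A son of such a female takes his X from his father and his Y from his mother, the reverse of the normal case. An X kept in males is exposed to selection in males, and alleles that favour males at a cost to females could then gain. MLX and Control males thus differed in the history of the X, in the parent that transmitted the X and the Y, and in the type of mother, and these cannot be told apart in this comparison. The X of a fly male is single, and its genes are raised in expression by the dosage compensation complex, while many genes for sperm, seminal fluid and male behaviour lie on the autosomes.

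The values were log2 expression after RMA, between 2.64 and 15.33, and a difference of 1 on this scale is a doubling of signal. A single gene was known for 13647 of the probe sets, which gave 11982 genes. The brightest probe set stood for a gene in the counts by gene. The exception was the count of genes at an unadjusted p under 0.01 with population means apart, where any probe set of a gene could pass. Arrays of the 2 treatments correlated with each other between 0.9945 and 0.9978 over all probe sets, and no 2 arrays were identical. Female yolk and eggshell transcripts were low on most arrays but stood out on Control 2-1, MLX 2-2 and MLX 3-2 (first number the population, second the array), whose mean levels over the 13 genes were 7.06, 7.75 and 6.76. The other 9 arrays lay between 5.47 and 5.73. The difference between 3' and 5' probe sets of 4 control transcripts, which grows with RNA degradation, was 1.49 ± 0.09 (SD, n = 6 arrays) in Control and 1.38 ± 0.10 in MLX males. Its exact permutation p was 0.2 over the 20 arrangements of 6 populations, where 0.1 is the smallest possible, and 0.0563 over all arrangements of the 12 arrays, which ignores that 2 arrays share a population (both two-sided).

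**Figure D1:**
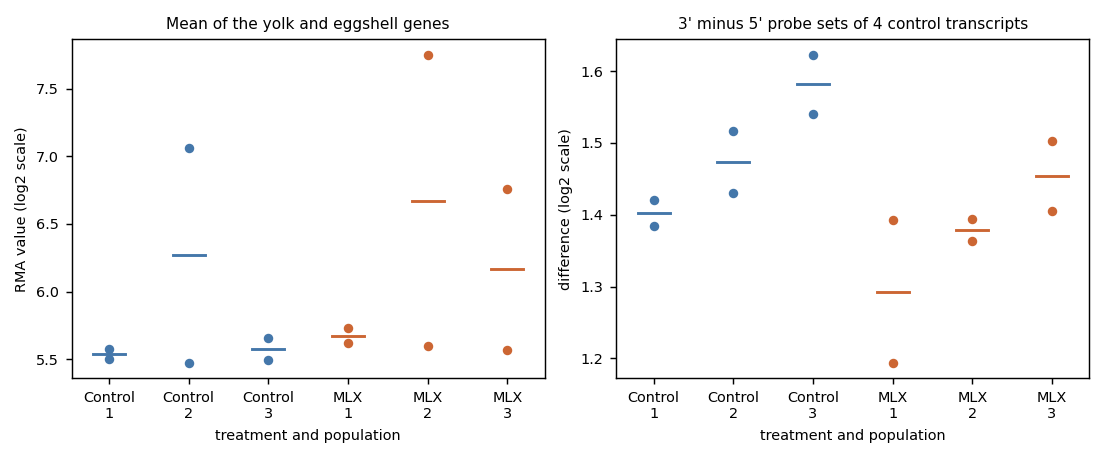
Left, mean RMA value (log2 scale) of 13 yolk and eggshell genes on each of the 12 arrays. Right, the 3' minus 5' difference (log2 scale) of 4 Affymetrix control transcripts. Points are arrays, bars are population means, Control is blue and MLX orange. Control 2-1, MLX 2-2 and MLX 3-2 stand above 6.7 on the left, and MLX 1-1 is the lowest on the right.

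Among genes at an unadjusted p under 0.01 whose population means did not overlap, the largest differences belonged to a storage protein of the haemolymph, several genes of unknown role, an odorant-binding protein, serpins, a metallothionein and a seminal fluid protein. No transcript was called once p-values were adjusted. Among 18769 probe sets, 0 had an adjusted p under 0.05 from limma (0%). An unadjusted p under 0.05 was found for 787 probe sets, 405 of them higher in MLX males (2.16%) and 382 lower (2.04%). An unadjusted p under 0.01 was found for 174, 99 of them higher (0.527%) and 75 lower (0.4%). The 3 population means of MLX males lay above all 3 of the Control males in 877 probe sets (4.67%) and below all 3 in 721 (3.84%). All 6 MLX arrays lay above all 6 Control arrays in 41 probe sets (0.218%) and below them in 26 (0.139%). A gene named below is therefore described by its values and is not called changed. When Control population 3 was left out, 2 probe sets passed after adjustment, and without MLX population 3 there were 4. Without MLX population 3 the counts at an unadjusted p under 0.05 also grew, to 670 higher and 635 lower.

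Differences were small for most of the transcriptome. The median difference over all probe sets was 0.00226 on the log2 scale, with a median standard error of 0.0743. The 95% interval of the difference lay wholly between -0.5 and 0.5 for 97.0% of probe sets. Only 54 probe sets differed by more than 0.5 and 5 by more than 1. Of these 5, Lsp2 and CG17177 were lower and CG34251 was higher. CG15369, at -1.18, had an unadjusted p of 0.0529 from limma, and it is named after its value was seen, while the last matched several genes. The direction of small differences went with signal level. Among 5 bins of probe sets by level, 44.1% were higher in MLX males in the dimmest and 57.4% in the brightest, with medians of -0.0101 and 0.0106. By gene, 6500 of 11982 means (54.2%) were higher in MLX males, with a median of 0.00735, and this share is the background for the gene lists.

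**Figure D2:**
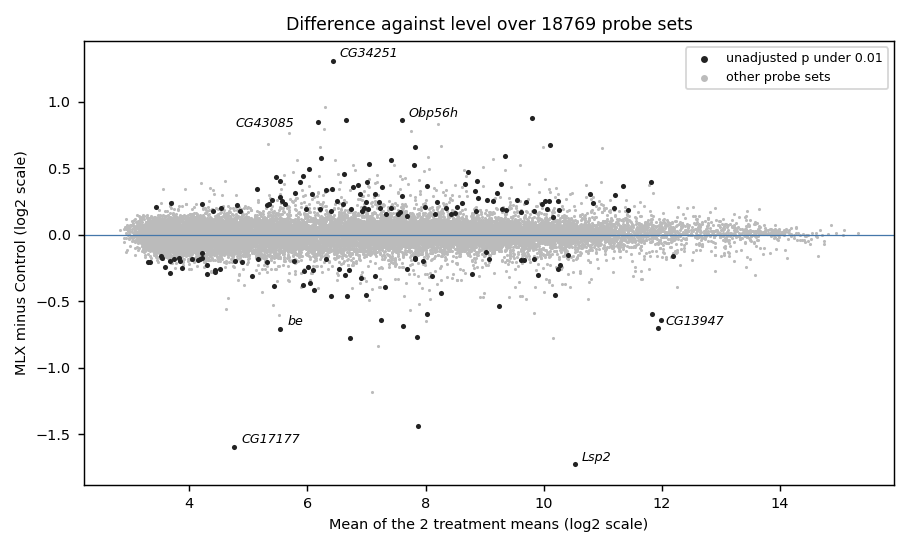
MLX minus Control (log2 scale) for each of 18769 probe sets against the mean of both treatment means (log2 scale). Black points have an unadjusted p under 0.01, grey points do not, and 7 of the genes with large differences are named. Lsp2 and CG17177 lie lowest, at -1.73 and -1.60, and CG34251 highest, at 1.31.

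Lsp2 encodes a larval serum protein, one of the hexamerins that the fat body stores in the haemolymph as a reserve of amino acids. Its lowest, median and highest values were 10.31, 11.47 and 12.18 on Control arrays and 8.77, 9.59 and 10.62 on MLX arrays. The arrays overlapped only through population 3 on each side, for the Control population means were 12.14, 11.47 and 10.56 and the MLX means were 9.59, 9.02 and 10.38. The difference was -1.73 with a standard error of 0.32 (adjusted p = 0.223 from limma). Without Control population 3 the adjusted p was 0.00969, and without MLX population 3 it was 0.0351. In the list of storage and haemolymph proteins 13 of 22 members had a higher mean in MLX males and 9, Lsp2 among them, a lower one, with a median of 0.01. With the 3' to 5' contrast of the arrays in the model, 7 of 22 were higher and the median was -0.04. Hml, the hemolectin of blood cells, was at 8.06 ± 0.49 (SD, n = 6 arrays) in Control and 8.45 ± 0.22 in MLX males. Karl, a lipocalin, was at 6.11 ± 0.28 and 6.41 ± 0.29 in the same order. PPO1, a prophenoloxidase carried by crystal cells, was at 7.80 ± 0.58 and 8.30 ± 0.51. Fbp1, the receptor that takes up serum proteins into the larval fat body, differed by -0.08 and apolpp, the major lipoprotein of the haemolymph, by -0.04, both less than the spread of their arrays. An unadjusted p under 0.05 was reached by 2 members that were higher, Hml and Karl, and by 1 that was lower, Lsp2, where among all genes 2.55% were higher and 1.94% lower at that threshold.

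Among the 12 genes with the largest differences upwards at an unadjusted p under 0.01 and with population means apart, CG34251 came first. It stood between 5.22 and 6.57 on Control arrays, with a median of 5.74, and between 6.63 and 7.41 on MLX arrays, with a median of 7.16. The arrays of the 2 treatments did not overlap. The difference was 1.31 with a standard error of 0.24 (adjusted p = 0.223 from limma). The MLX populations lay close together, at 7.05, 7.02 and 7.17, while the Control populations spread over 6.22, 5.79 and 5.31. CG43085 showed a like spread, with Control populations at 6.29, 5.64 and 5.35 and MLX populations at 6.64, 6.48 and 6.72, but its arrays overlapped. CG31792 ran from 5.58 to 6.76 in Control and from 6.51 to 8.0 in MLX males, a difference of 0.87. CG2070 ran from 6.98 to 7.83 and from 7.84 to 8.57, so that its arrays just failed to overlap. The remaining members of unknown role, CG3635, CG16775, CG12947 and CG13026, differed by 0.58, 0.52, 0.50 and 0.40, and each had overlapping arrays.

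Obp56h, an odorant-binding protein of the antenna and mouthparts, had 6.69, 7.15 and 7.64 as the lowest, median and highest value on Control arrays and 7.16, 8.15 and 8.51 on MLX arrays. MLX population 2 was the highest of the 6 populations at 8.44 and Control population 2 the lowest at 6.81. The difference was 0.86 with a standard error of 0.24 (adjusted p = 0.831 from limma). The rest of the family differed little, as 28 of 48 members had a higher mean in MLX males, with a median of 0.02. Obp49a, which acts in bitter taste, differed by 0.23 and the X-linked Obp19d by 0.16. With Obp56h, these were the 3 of 48 members higher at an unadjusted p under 0.05, where 2.55% of all genes were. For lush, which is needed to sense the male pheromone cVA, the values were 7.75 ± 0.13 (SD, n = 6 arrays) and 7.84 ± 0.25.

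Jhbp12 belongs to a family of haemolymph proteins related to the juvenile hormone binding proteins of other insects. On Control arrays it lay at 9.27, 9.78 and 10.20 (lowest, median and highest), and on MLX arrays at 9.86, 10.24 and 11.26. MLX population 1 carried much of the difference of 0.68, for its mean was 11.06 against 10.04 and 10.23 in the others, and without it the difference was 0.37. The whole family, which is listed here because 3 of its members were among the genes at an unadjusted p under 0.01 with population means apart, had 12 measured genes. The mean was higher in MLX males in 11 of them, and the median over all 12 was 0.07. Of the 12, 4 were higher at an unadjusted p under 0.05, where 2.55% of all genes were. Jhbp6 differed by 0.34, Jhbp3 by 0.24 and Jhbp7 by 0.21. For Jhbp3 the Control arrays lay within 10.64 to 10.78 and the MLX arrays within 10.73 to 11.15, a narrow overlap. Jhbp5, the brightest member, was the exception at -0.04. As the family was picked for its values, these counts describe it and test nothing.

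The other known genes in the upper group were RN-tre and CHKov1. RN-tre, a GTPase-activating protein for Rab proteins of membrane traffic, had a range of 5.09 to 5.58 on Control and 5.44 to 5.92 on MLX arrays, and differed by 0.41. CHKov1, of a choline kinase-like family, had 11.39 to 11.96 and 11.85 to 12.28, and differed by 0.40. Both overlapped between treatments by 1 or more arrays. Without the 6 arrays with the most yolk and eggshell signal, all 29 genes named by size here or on the X kept an unadjusted p under 0.05 from limma, and 18 of them one under 0.01. With the 3' to 5' contrast in the model these numbers were 28 and 19. The genes were chosen by their p on these same arrays, so such counts describe them and test nothing.

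**Figure D3:**
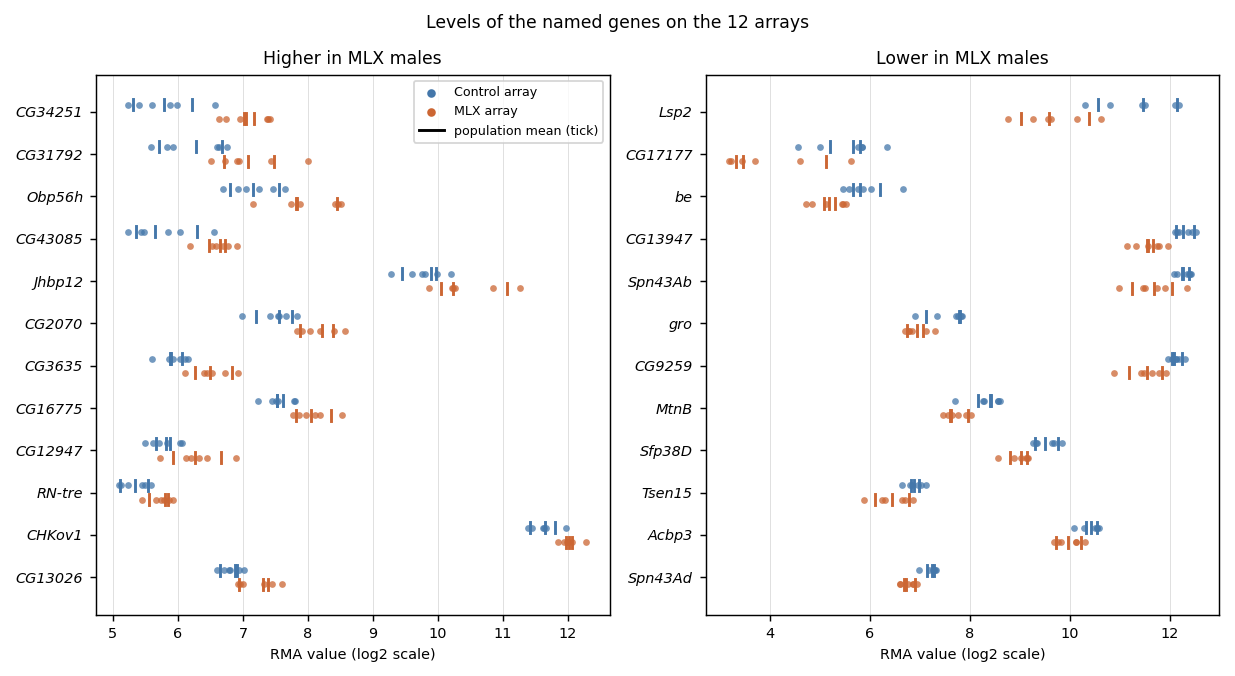
RMA values (log2 scale) of the 12 genes with the largest differences upwards (left) and downwards (right), among genes at an unadjusted p under 0.01 with population means apart, on 6 Control (blue) and 6 MLX (orange) arrays. Points are arrays and ticks are population means. The population means of the treatments do not overlap in any of the 24 genes, which is how they were chosen, and the arrays do not overlap in 2 genes on the left and 4 on the right.

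In the lower group, CG17177 had the most uneven populations. Its Control arrays lay at 4.56, 5.80 and 6.34 (lowest, median and highest) and its MLX arrays at 3.18, 3.57 and 5.62. MLX populations 1 and 2 were at 3.46 and 3.31, close to the dimmest signals of the array, whereas MLX population 3 was at 5.11, near Control population 3 at 5.2. The difference was -1.60 with a standard error of 0.44 (adjusted p = 0.81 from limma). CG13947 was bright and even, with Control arrays at 12.11, 12.27 and 12.53 and MLX arrays at 11.15, 11.66 and 11.96, which did not overlap. Its difference was -0.70. CG9259 was also bright, with Control arrays between 11.97 and 12.31 and MLX arrays between 10.89 and 11.92, and differed by -0.60 without overlap.

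The serpins Spn43Ab and Spn43Ad are neighbours on chromosome 2R, and both were lower in MLX males. Serpins are inhibitors that trap serine proteases, and in the haemolymph they hold back the cascades of melanisation and Toll signalling. Spn43Ad had 6.99, 7.27 and 7.33 on Control arrays (lowest, median and highest) and 6.59, 6.81 and 6.94 on MLX arrays, which did not overlap. The difference of -0.45 had the small standard error of 0.09 (adjusted p = 0.223 from limma). Spn43Ab had 12.08, 12.36 and 12.43 on Control and 10.98, 11.62 and 12.34 on MLX arrays. Its MLX populations were spread over 11.24, 12.04 and 11.68, and the difference of -0.64 was -0.44 without MLX population 1. The list of 28 serpins was otherwise balanced, with 14 members on each side and a median of -0.001. Spn88Eb, which differed by -0.15, was the third of 28 members with an unadjusted p under 0.05, where 1.94% of all genes were lower at that threshold. Other neighbours among the genes at an unadjusted p under 0.01 with population means apart were noted after their values were seen. They were CG31199 and CG31200 on 3R, which were higher by 0.26 and 0.25, and the dim Gr58c and Gr58a on 2R, at -0.18 and -0.21.

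MtnB is a metallothionein, a small protein that binds copper and other metal ions. Its Control arrays lay at 7.71, 8.42 and 8.60 (lowest, median and highest) and its MLX arrays at 7.47, 7.71 and 8.02, so that a single Control array fell among the MLX arrays. The difference was -0.60. MtnD differed by -0.36 (unadjusted p = 0.0583 from limma), while MtnA, the brightest of the family, differed by 0.07. Of 31 genes of metal binding and transport, 16 had a higher mean in MLX males, with a median of 0.01. The zinc transporters Zip88E and Zip42C.2 went in opposite directions, at -0.22 and 0.16.

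The corepressor gene groucho (gro), whose protein silences targets of many transcription factors, had 6.89, 7.74 and 7.85 on Control arrays and 6.71, 6.81 and 7.30 on MLX arrays. Control population 3, at 7.12, stood apart from the other Control populations at 7.79 and 7.78. The difference was -0.64, with an adjusted p of 0.471 from limma and of 0.00345 when Control population 3 was left out. The sex determination list, to which gro was assigned as a partner of the early X-counting genes, had 10 of 17 members with a higher mean in MLX males. The genes that carry out sexual identity differed by less than the spread of their arrays. The transcription factor gene dsx was at 10.07 ± 0.18 (SD, n = 6 arrays) in Control and 10.04 ± 0.24 in MLX males, fru at 8.14 ± 0.10 and 8.12 ± 0.09, and the splicing regulator tra at 8.19 ± 0.10 and 8.21 ± 0.11.

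Acbp3, an acyl-CoA binding protein, lay between 10.09 and 10.58 in Control and between 9.68 and 10.31 in MLX males and differed by -0.46. Tsen15, a subunit of the endonuclease that splices transfer RNA, differed by -0.46 as well, but by -0.29 without MLX population 1, where its mean was 6.09 against 6.78 and 6.44 in MLX populations 2 and 3. CG12947 likewise went from 0.50 to 0.30 without that population.

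The seminal fluid proteins, made in the male accessory gland and passed to the female at mating, were mostly lower in MLX males by small amounts. Of 32 measured members 27 had a lower mean, with a list median of -0.05, where 54.2% of all genes had a higher mean. The populations were uneven. The mean over the list was 11.95 and 12.05 on the arrays of MLX population 1. It was 12.23 and 12.27 in MLX population 2 and 12.16 on both arrays of MLX population 3. Control arrays ran from 12.09 to 12.36 with a mean of 12.21. Sfp38D was apart from the rest. It had 9.27, 9.5 and 9.85 on Control arrays and 8.57, 9.07 and 9.15 on MLX arrays, without overlap, and differed by -0.53. Over the alternative settings described below, its difference ran from -0.64 to -0.33. Acp63F, at 13.79 ± 0.07 (SD, n = 6 arrays) and 13.65 ± 0.10, was the other member with an unadjusted p under 0.05, where 1.94% of all genes were lower at that threshold. The sex peptide SP, which switches mated females to laying eggs and refusing males, was at 13.97 ± 0.06 and 13.93 ± 0.04. Acp36DE, needed for sperm storage, differed by -0.11 and Acp26Aa, the prohormone ovulin, by -0.06. The median of the list turned to 0.03, with 22 of 32 members higher, once the 3' to 5' contrast of the arrays entered the model, and it was -0.10 without the 6 arrays with the most yolk and eggshell signal, 3 of them CDX arrays. The part of RNA quality in this shift was not tested. Of 6 genes of the ejaculatory duct and bulb 5 had a lower mean, and Dup99B, the ductus peptide related to SP, was the same on both sides at 14.34 ± 0.06 and 14.34 ± 0.04.

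In the testis list 44 of 64 members were higher in MLX males, with a median of 0.02. The median was 0.05 both without the 6 arrays with the most yolk and eggshell signal, with 46 of 64 higher, and with the 3' to 5' contrast in the model, with 53 of 64. The retrogene Ntf-2r, a copy of a nuclear transport factor expressed in the testis, had 7.54, 7.84 and 8.09 on Control arrays and 7.92, 8.22 and 8.46 on MLX arrays, a difference of 0.37. The testis tubulin betaTub85D, the building block of the sperm tail, differed by 0.13 and was at 12.72 ± 0.10 (SD, n = 6 arrays) and 12.84 ± 0.07. These were the 2 of 64 members with an unadjusted p under 0.05, where 2.55% of all genes were higher at that threshold. Abundant sperm genes such as Mst84Da, at 13.33 ± 0.08 and 13.31 ± 0.07, and dj, at 9.28 ± 0.10 and 9.22 ± 0.07, lay within the spread of their arrays.

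The Y chromosome came from the mother in MLX males, and its genes, most of which serve the sperm axoneme, showed no difference beyond their spread. The dynein genes kl-2, kl-3 and kl-5 were at 4.34 ± 0.09, 3.67 ± 0.14 and 3.44 ± 0.10 (SD, n = 6 arrays) in Control males. In MLX males they were at 4.31 ± 0.13, 3.76 ± 0.11 and 3.38 ± 0.10. The remaining 4 of the 7, ORY, ARY, Pp1-Y2 and Ppr-Y, differed by -0.04, 0.04, 0.00 and -0.00, and all 7 had an unadjusted p over 0.2. The signals of kl-2, kl-3 and kl-5 were near the dim end of the array, where a change is hard to detect.

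X-linked genes were not set apart from autosomal ones by the test made. Of 1873 X-linked genes 1017 (54.3%) had a higher mean in MLX males, with a median of 0.006, against 56.0% on 2L, 55.0% on 2R, 53.2% on 3L and 53.7% on 3R. An unadjusted p under 0.05 was reached by 3.74% of X-linked genes and by 3.92% to 5.19% of genes on the long autosomal arms. The level of X-linked minus autosomal genes, taken as the difference of the 2 medians on each array, differed by -0.003 between MLX and Control males, with an exact permutation p of 0.7 over populations and 0.6 over arrays (two-sided). The sign turned without MLX population 2, at 0.0011. The 3 MLX populations were at 0.01, -0.0098 and -0.0047 and the Control populations at 0.0042, -0.0004 and 0.0009.

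**Figure D4:**
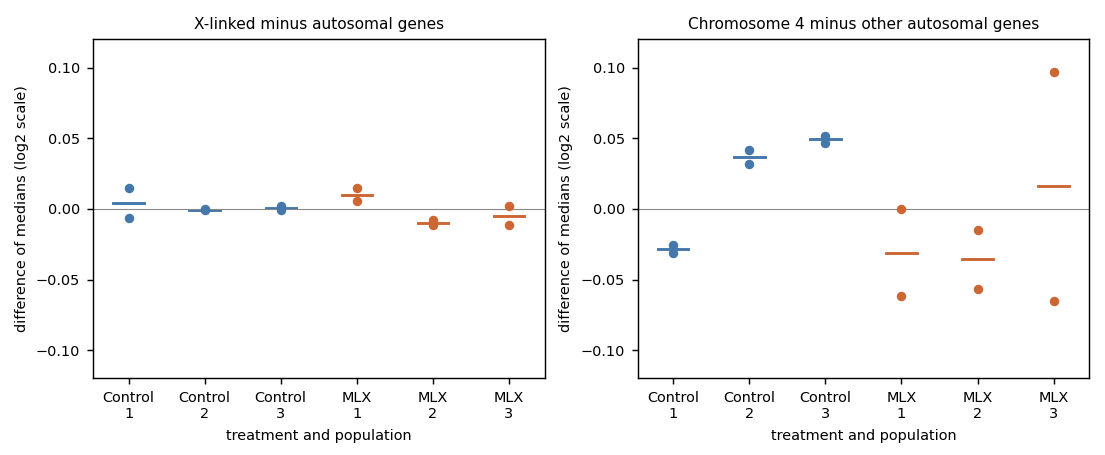
Median deviation of X-linked minus autosomal genes (left) and of chromosome 4 minus other autosomal genes (right) on the 12 arrays, on the log2 scale, after the mean of each gene over these arrays was subtracted. Points are arrays and bars are population means. All X values lie within 0.015 of 0, and the chromosome 4 values spread more widely, with MLX 3-2 highest.

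Of all 11982 genes, 123 had a probe set at an unadjusted p under 0.01 from limma with population means apart, whether or not it was the brightest. They were 15 of 1873 genes on the X, 33 of 2205 on 2L and 26 of 2427 on 2R. There were 21 of 2344 on 3L, 25 of 2974 on 3R and 1 of 65 on chromosome 4. The others were not placed on an arm. A gene with several probe sets had more chances to be counted. Among the 15 on the X the largest difference was that of be, with 5.45, 5.81 and 6.65 on Control arrays and 4.71, 5.28 and 5.53 on MLX arrays, a difference of -0.71. CG3603 had 8.99, 9.08 and 9.24 on Control and 9.24, 9.46 and 9.62 on MLX arrays. These were apart by less than 0.01, and the difference was 0.38 with a standard error of 0.09 (adjusted p = 0.471 from limma). CG5921 and CG3091 were higher by 0.29 and 0.25, and the unconventional myosin gene Myo10A was lower, at -0.27. The gustatory receptor gene Gr9a differed by -0.24 at a level of 3.46 ± 0.14 (SD, n = 6 arrays) in MLX males, near the floor of the signal. The gene tan (t) of the X releases dopamine from its beta-alanine conjugate and takes part in pigmentation and vision. It stood at 10.27, 10.40 and 10.49 on Control and 10.05, 10.15 and 10.25 on MLX arrays, without overlap, a difference of -0.23. In the same list of 22 pigmentation and tanning genes, ple, the tyrosine hydroxylase that starts dopamine synthesis, differed by -0.15 at a dim level of 4.39 ± 0.10 in Control males, and the median was -0.01.

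The genes of dosage compensation, which act on the male X, had 4 of 8 members on each side, with a median of -0.002. With the 3' to 5' contrast in the model 7 of 8 were higher, by a median of 0.06. Transcripts of msl-2, the male-specific subunit of the complex, were at 7.26 ± 0.07 (SD, n = 6 arrays) in Control and 7.15 ± 0.08 in MLX males, those of msl-3 at 7.88 ± 0.03 and 7.95 ± 0.06, those of mle at 7.72 ± 0.08 and 7.67 ± 0.18, and those of mof at 7.10 ± 0.18 and 7.13 ± 0.09. None had an unadjusted p under 0.05. Chromosome 4, the small heterochromatic autosome bound by Pof, was looked at after its values were seen. Of its 65 genes 21 (32.3%) had a higher mean in MLX males, with a median of -0.02. Its level relative to the other autosomes differed by -0.04, with an exact permutation p of 0.2 over populations and 0.238 over arrays (two-sided). Control population 1, at -0.03, lay with the MLX populations 1 and 2. Pof itself was at 12.21 ± 0.11 and 12.22 ± 0.12, although 16 of 17 genes of heterochromatin, among them the gene of HP1a, had a slightly higher mean in MLX males, by a median of 0.04.

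**Figure D5:**
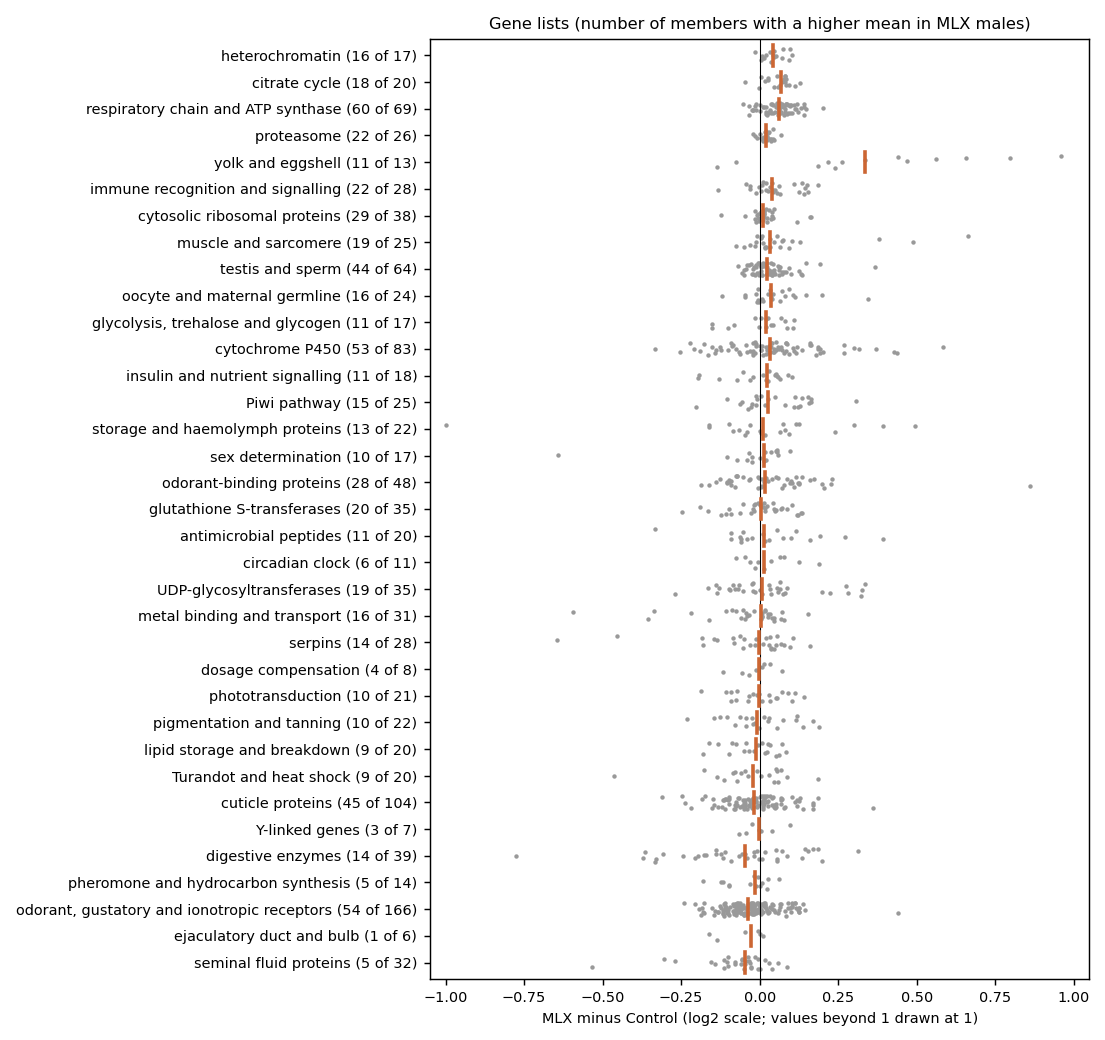
MLX minus Control (log2 scale) for the members of 35 gene lists, 1 grey point a gene and an orange bar at the list median, ordered by the share of members with a higher mean in MLX males. The numbers beside each name give those members out of all measured. Citrate cycle and respiratory chain lie near the top with 18 of 20 and 60 of 69, and seminal fluid proteins lie at the bottom with 5 of 32.

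Genes of mitochondrial energy metabolism mostly had slightly higher means in MLX males, and the shift of the group was not tested. In the respiratory chain and ATP synthase 60 of 69 members had a higher mean in MLX males, with a median of 0.06 and a range of -0.05 to 0.20. In the citrate cycle these were 18 of 20 and 0.07. A single member of both lists reached an unadjusted p under 0.05, ND-13B of complex I, at 10.54 ± 0.08 (SD, n = 6 arrays) and 10.68 ± 0.11, where 2.55% of all genes were higher at that threshold. COX5B of cytochrome oxidase differed by 0.11 and blw, the alpha subunit of ATP synthase, by 0.01. With the 3' to 5' contrast in the model the medians were 0.01 for the respiratory chain, with 48 of 69 members higher, and 0.04 for the citrate cycle, with 14 of 20, and without the 6 arrays with the most yolk and eggshell signal they were 0.08 and 0.09. The part of RNA quality was not tested. In glycolysis and sugar storage 11 of 17 were higher, or 5 of 17 with that contrast in the model, and the glycerol phosphate dehydrogenase Gpdh1 was at -0.15.

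In the muscle list 19 of 25 had a higher mean in MLX males, with a median of 0.03. The members with the largest differences were parts of the indirect flight muscle. The troponin C gene TpnC4 had 8.48, 9.80 and 10.19 on Control arrays and 9.54, 10.46 and 10.60 on MLX arrays and differed by 0.66 (unadjusted p = 0.046 from limma). The flightin gene fln differed by 0.49 and the actin gene Act88F by 0.38, with unadjusted p of 0.138 and 0.0668. The arrays of all 3 overlapped widely. Without the 6 arrays with the most yolk and eggshell signal 18 of 25 members were higher and the list median was 0.01. With the 3' to 5' contrast in the model these were 22 of 25 and 0.05.

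Immune recognition and signalling had 22 of 28 members with a higher mean, and 3 of them with an unadjusted p under 0.05, where 2.55% of all genes were higher at that threshold. Relish (Rel), the NF-kappaB factor of the Imd pathway, had 9.19, 9.30 and 9.33 on Control arrays and 9.39, 9.44 and 9.59 on MLX arrays, without overlap, a difference of 0.18. The peptidoglycan recognition protein gene PGRP-LA had 8.26, 8.35 and 8.44 and then 8.47, 8.5 and 8.56, also without overlap, a difference of 0.15. The Toll pathway kinase gene pelle (pll) differed by 0.14. Of the antimicrobial peptides that such pathways induce 11 of 20 had a higher mean, and none had an unadjusted p under 0.05. Drosomycin (Drs) was at 10.21 ± 0.53 (SD, n = 6 arrays) and 9.88 ± 0.57 and metchnikowin (Mtk) at 9.60 ± 0.80 and 9.87 ± 0.58. Among stress genes Hsp26 differed by 0.19 and TotB by -0.18, whereas TotC varied too much between arrays for any statement, at 9.65 ± 0.92 and 9.18 ± 1.46.

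Of 83 cytochrome P450 genes, which oxidise hormones, lipids and toxins, 53 had a higher mean in MLX males, with a median of 0.03. At an unadjusted p under 0.05, 9 were higher and 4 lower, where 2.55% and 1.94% of all genes were. Cyp4d21 differed by 0.37, Cyp4p1 by 0.32, Cyp4aa1 by 0.30 and Cyp6a2, a gene linked to insecticide resistance, by 0.27. On the other side were Cyp309a1 at -0.25 and Cyp6a14 at -0.22. The largest difference of the family, 0.58 for Cyp12d1-d, came with arrays that ran from 5.90 to 9.18 in Control and from 5.41 to 9.69 in MLX males. Cyp4g1, the brightest member and the last enzyme of hydrocarbon synthesis, was at 15.07 on both sides. Glutathione S-transferases and UDP-glycosyltransferases were balanced, with 20 of 35 and 19 of 35 members higher.

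Digestive enzymes were mostly lower, with 25 of 39 members below the Control mean and a median of -0.05. Jon44E, a serine protease of the gut, had 9.62, 10.60 and 11.27 on Control and 9.30, 9.68 and 10.26 on MLX arrays, a difference of -0.78. Jon65Aii, Jon99Ci and Jon25Biii, of the same Jonah family, differed by -0.31, -0.20 and -0.18, and these 4 of 39 were the members with an unadjusted p under 0.05, where 1.94% of all genes were lower at that threshold. The trypsin alphaTry was at 14.43 ± 0.10 (SD, n = 6 arrays) and 14.42 ± 0.03. Among nutrient signals AkhR, the receptor of adipokinetic hormone in the fat body, differed by -0.20, the insulin-like peptides Ilp5 and Ilp2 by -0.19 and -0.13, and the lipase brummer (bmm) by -0.16, and the unadjusted p was over 0.05 for each. The fatty acid synthase gene FASN3 of the oenocytes, which make cuticular hydrocarbons, differed by -0.18 (unadjusted p = 0.0431 from limma).

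The odorant, gustatory and ionotropic receptors formed the longest list, with 54 of 166 members higher in MLX males and a median of -0.04. Their median level was 4.07, within the dimmest of the 5 bins, in which 44.1% of all probe sets were higher with a median of -0.0101, against 32.5% of the list. At an unadjusted p under 0.05, 1 member was higher and 7 lower, where 2.55% and 1.94% of all genes were. The part of signal level was not tested. The ionotropic receptor gene Ir76a was an exception, at 5.97 ± 0.27 (SD, n = 6 arrays) and 6.41 ± 0.28, a difference of 0.44. The coreceptor gene Orco was at 6.48 ± 0.10 and 6.57 ± 0.19. Cuticle proteins had 45 of 104 members higher, with Cpr49Ab at 0.36 and TwdlO at -0.25. Phototransduction and clock genes were balanced, with 10 of 21 and 6 of 11, and the kinase gene inaC of the photoreceptors differed by -0.19. The clock gene per was at 6.63 ± 0.17 and 6.61 ± 0.16, while tim ranged from 9.54 to 10.96 on Control and from 9.49 to 11.30 on MLX arrays.

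Transcripts of the female reproductive tract marked the 3 arrays already named. The yolk protein gene Yp1 had a median of 5.53 on Control and 5.93 on MLX arrays, and its highest values were 8.62 and 9.19. The median over the 13 yolk and eggshell genes was 0.34 with all arrays and 0.07 without the 6 arrays of the highest level. The 24 oocyte and maternal genes had a mean level between 6.32 and 6.48 on Control and between 6.33 and 6.59 on MLX arrays, with 16 of them higher in MLX males, or 12 without those 6 arrays. In the Piwi pathway, which silences transposons in the gonads of both sexes, 15 of 25 had a higher mean, with a median of 0.03. Without the 6 arrays these were 11 of 25 and -0.001, and with the 3' to 5' contrast in the model 20 of 25 and 0.11. Aubergine (aub), the Piwi-family protein that also represses Stellate and transposons in the testis, had 5.80, 5.93 and 6.02 on Control arrays and 6.06, 6.23 and 6.44 on MLX arrays, without overlap. Its difference was 0.31 with a standard error of 0.07 (adjusted p = 0.471 from limma), whereas piwi differed by 0.11 with an unadjusted p of 0.326.

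Housekeeping genes served as a reference for the lists. Of 38 cytosolic ribosomal proteins 29 had a higher mean, by a median of 0.01, and of 26 proteasome subunits 22, by a median of 0.02. The ribosomal protein gene RpL32 was at 13.97 ± 0.03 (SD, n = 6 arrays) and 13.98 ± 0.01. Counts of members in 1 direction were thus far from even in lists whose medians were a few hundredths at most, and a count of this kind is not a test.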

How the data were processed

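The authors deposited log2 values made by RMA in the package affy (BioConductor 2.4), from the Affymetrix GeneChip Drosophila Genome 2.0. The affy version is not given here. Of 18952 probe sets, 183 Affymetrix controls were left out of the tests. Genes and arms came from the platform annotation updated through RefSeq (Release 6 plus ISO1 MT): 402 probe sets matched several genes and 4720 none. All 18 arrays were fitted in limma 3.58.1 (R 4.3.3) with treatment as a fixed factor and the 9 populations as a random block (duplicateCorrelation, correlation 0.192), followed by eBayes. The contrast was MLX minus Control, adjusted by Benjamini-Hochberg over 18769 probe sets at 0.05. Per the methods, arrays of a population hold separate groups of males, and whether these came from separate cultures is not stated, so the spread between them may be technical. The number of arrays limits the precision.

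Genes past the threshold, up to 12 on each side, were to be named. As none passed, the places went by size to genes at an unadjusted p under 0.01 with population means apart, with up to 6 on the X. Of each list the 3 members with the largest difference and its defining members could be named, and others are named after their values were seen. The 35 gene lists held 6 to 166 measured genes, counted by the brightest probe set and described without a test. The members and lists were chosen with earlier results of these data known, and 11 corrections of list membership were made after the matched members were seen. The exact permutation tests used scipy 1.17.1 in Python 3.11.15, with numpy 2.4.6, pandas 2.3.3 and matplotlib 3.10.9.

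The model recovered most of the known differences added to simulated arrays with the real spread. Those arrays had normal errors and a correlation of 0.19 within populations, as the model assumes and as it was fitted here. The recovery thus checks the code and says nothing about how well the model describes these data. The alternatives were the 12 arrays alone, population means, independent arrays, a replicate block, median centring, no dim probe sets, a trend with robust moderation, 1 probe set per gene, the mean in place of the median, all probe sets of a list member and each population left out in turn. Chosen after seeing the data were 3 more: leaving out the 6 arrays with the most yolk and eggshell signal, and a term for that signal or for the 3' to 5' contrast of each array. No sequences were used here.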

Additional observations from a re-analysis of the deposited data

Results flagged for a closer look

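Among 132 groups of 6 arrays looked at, for the named genes, the list means and the array measures, 6 held an array apart from the other 5 by a gap beyond the 95% critical value of Dixon's ratio of gap to range. Chance flags about 1 in 20 groups. None of the named genes was among them, and the values are given without an explanation. Control 1-1 stood apart in 3 lists: its mean level was 7.46 for dosage compensation against 7.62 to 7.68 on the other Control arrays, 5.68 for cuticle proteins against 5.54 to 5.59, and 7.97 for heterochromatin against 8.04 to 8.06. Control 2-1 had a mean of 7.06 for the yolk and eggshell genes, where the other Control arrays lay between 5.47 and 5.66. MLX 3-1 had a mean of 11.44 for glycolysis, trehalose and glycogen against 11.54 to 11.60 on the other MLX arrays, and MLX 3-2 one of 4.09 for the odorant, gustatory and ionotropic receptors against 4.17 to 4.21.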

How the results depend on the processing

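None of the 29 genes named by size or on the X reversed its direction under an alternative in which it was measured. When a population was left out this was fixed beforehand, because the genes were chosen with population means apart. Population means and independent arrays leave the difference itself unchanged, so they could not turn a direction either. The kept direction under these settings is thus no test of the genes. Only median centring and the settings chosen after seeing the data could have turned it. Other named genes were not followed one by one. The count of 0 probe sets after adjustment held in all settings except the removal of a population (0 to 4). At an unadjusted p under 0.05 the removal of a population gave 336 to 670 probe sets higher and 324 to 635 lower, and at 0.01 it gave 73 to 178 higher and 52 to 142 lower, with the most in each case without MLX population 3. Arrays taken as independent gave 607 higher and 592 lower at 0.05, and 167 higher and 142 lower at 0.01. Population means gave 64 higher and 66 lower at 0.01. Without the dim probe sets, where fewer were tested, the counts were 217 higher and 139 lower at 0.05 and 43 higher and 28 lower at 0.01. With 1 probe set per gene, where fewer were tested as well, there were 286 higher and 212 lower at 0.05. Where no construction shows it, the cause was not tested.

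The replicate block of population number gave 0 probe sets after adjustment and 964 at an unadjusted p under 0.05. By the methods, populations with the same number are no closer kin than others, and whether they were handled together is not stated. The mean of each treatment was subtracted from its populations, and these deviations were correlated over all probe sets. Between Control and MLX populations of the same number the correlations were 0.384, 0.084 and 0.239. As a hint from the data, each of the 3 MLX populations correlated best in these deviations with the Control population of its own number. The 3' minus 5' difference also rose with the number, over 1.40, 1.47 and 1.58 in Control and 1.29, 1.38 and 1.45 in MLX populations. A shared batch by number was not tested. The level of X-linked minus autosomal genes ranged from -0.0088 to 0.0011 when a population was left out, and 0.0011, without MLX population 2, turned its sign. Of 455 values of list medians under the alternatives, 30 moved by more than the spread between populations. Signal limits the receptor list and the Y-linked genes kl-2, kl-3 and kl-5, which lie close to the dim end.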
